A study of Mus musculus with 6 samples.

Results

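Small nucleolar RNAs (snoRNAs) and the long noncoding RNAs that host some of them were examined in activated CD8+ T cells after inhibition of myosin II. Members were the gene rows named Snora, Snord or Snhg, and Gas5, with a mean of at least 1 TPM (a transcript abundance corrected for length and library size) over the 6 libraries. The rule kept 86 of the 47729 genes, 75 of them snoRNAs and 11 of them hosts. The snoRNAs were 27 of the 40 rows named Snora and 48 of the 84 rows named Snord. The hosts were 11 of 16 named rows. Members were thus selected on name and on mean level over both groups, not on the difference between groups, and the levels below are a description.

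Messenger RNA of mouse spleen T cells was sequenced in 3 blebbistatin libraries and 3 vehicle libraries. Blebbistatin, a small-molecule inhibitor of the ATPase of myosin II, was given at 2 µM for 24 h. The vehicle is not described in the labels, and neither strain, age nor genotype is given there. Nothing in the labels ties a replicate to its own animal or culture. All p-values therefore rest on the spread among these 6 libraries, and that spread may be technical.

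snoRNAs guide chemical modification of ribosomal RNA in the nucleolus. The box C/D class, named Snord, directs methylation of riboses, and the H/ACA class, named Snora, directs conversion of uridine to pseudouridine. In mammals most of them are cut out of introns of host genes, many of which encode ribosomal proteins and translation factors, so that 1 transcript gives both an mRNA and a snoRNA. SNHG genes and Gas5 are hosts whose spliced RNA codes for no known large protein, and in mammalian cells several of these RNAs are broken down by nonsense-mediated decay when they are translated. Mature snoRNAs carry no poly(A) tail, whereas the TruSeq RNA v2 kit named in the labels enriches RNA that has one. In these rows mature snoRNA and host RNA that still holds the intron cannot be told apart, and neither can fewer cells of a type and less RNA per cell.

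The sequences of 8 snoRNAs on which the results turn are shown in GENCODE M21 on GRCm38, in the direction of the RNA and written as DNA. Capitals mark the first TGATG (box C core) in the first 20 bases and the last CTGA (box D) in the last 20 bases of a Snord. In a Snora they mark the last ACA in the last 8 bases. Snora41 holds another ACA there that overlaps the marked one, and which of them is the box was not tested. Snora41, which lies inside the translation factor gene Eef1b2, and Snord33, which lies inside the ribosomal protein gene Rpl13a, were the 2 that passed the test. Snord34, Snord35a and Snord32a are the other Rpl13a snoRNAs. Snord37 and Snora70 were among the largest falls in fold change of snoRNAs that did not pass, had a mean of at least 5 TPM and did not overlap between groups. Snord80 lies inside Gas5.
Snora41: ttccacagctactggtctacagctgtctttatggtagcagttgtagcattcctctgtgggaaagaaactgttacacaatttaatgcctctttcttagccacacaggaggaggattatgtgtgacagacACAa
Snord33: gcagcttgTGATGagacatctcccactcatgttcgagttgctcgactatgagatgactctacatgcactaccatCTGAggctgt
Snord34: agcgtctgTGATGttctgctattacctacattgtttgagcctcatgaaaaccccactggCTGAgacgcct
Snord35a: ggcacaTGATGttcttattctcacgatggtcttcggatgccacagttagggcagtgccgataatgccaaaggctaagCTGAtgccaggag
Snord32a: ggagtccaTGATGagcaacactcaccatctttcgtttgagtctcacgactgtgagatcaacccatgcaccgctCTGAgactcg
Snord37: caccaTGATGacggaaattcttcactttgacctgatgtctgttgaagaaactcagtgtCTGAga
Snora70: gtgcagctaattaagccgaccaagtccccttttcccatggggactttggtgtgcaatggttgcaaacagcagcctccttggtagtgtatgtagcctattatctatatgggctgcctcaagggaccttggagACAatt
Snord80: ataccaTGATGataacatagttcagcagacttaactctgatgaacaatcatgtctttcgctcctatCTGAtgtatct

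Snora41 is at chr1:63179004-63179135 on the plus strand. The Rpl13a snoRNAs are all on the minus strand, Snord33 at chr7:45126864-45126947, Snord34 at chr7:45126601-45126670, Snord35a at chr7:45126346-45126435 and Snord32a at chr7:45127382-45127464. Snord37 is at chr10:81178950-81179013 on the plus strand and Snora70 at chrX:74272484-74272620 on the plus strand. Snord80 is at chr1:161037604-161037680 on the plus strand. Among the 48 Snord members, TGATG was found in the first 20 bases of 42 and CTGA in the last 20 bases of 46, with both in 40. All 27 Snora members had ACA in their last 8 bases. Only the RNA strand was searched. Of 53898 other transcripts, the longest of each gene, 0.193% had both of the box C/D strings and 11.7% had the terminal ACA.

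The deposited coverage implied 18500000 to 19900000 fragments per library when 300 aligned bases were taken as 1 fragment. That length was assumed, and the fragment numbers depend on it. A row at 1 TPM had a mean read depth of 2.66 to 2.83. Blebbistatin libraries correlated with each other at 0.983 to 0.989 and vehicle libraries at 0.99 to 0.991 on log2(TPM + 1). Platelet markers were summed at 111 to 129 TPM in blebbistatin libraries and at 49.4 to 59.1 TPM in vehicle libraries, and 4 of the 5 that were tested rose. B cell markers were summed at 618 to 707 TPM in blebbistatin libraries and at 597 to 615 TPM in vehicle libraries, and 2 of 5 rose. Most of these sums was Ighm, at 477 ± 12.6 TPM with blebbistatin and 500 ± 7.77 TPM with vehicle (SD, n = 3 each). Ighm was the 1 of the 5 with a log2 fold change below 0, at -0.07, and did not pass. Of the 6 CD8 T cell markers none passed, and 4 had a log2 fold change above 0. Their sums of 8127 to 8935 TPM in blebbistatin libraries and 9168 to 9339 TPM in vehicle libraries were mostly the cytotoxic granule protease Gzmb, at 6165 ± 334 TPM with blebbistatin and 7040 ± 91.3 TPM with vehicle (SD, n = 3 each). The part of these markers in the results below was not tested. Mitochondrially encoded RNA made up 91430, 72130 and 73333 TPM in blebbistatin libraries, against 68871, 65777 and 68654 TPM in vehicle libraries. Blebbistatin replicate 1 stood highest, and its part in the results was also not tested beyond leaving that library out.

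snoRNA rows were low and short. They were 64 to 238 bases long, with a median of 132 for Snora and 79.5 for Snord. Of the 124 named snoRNA rows, 43 were above 0 but under the level required and 6 were at 0 in every library. Just inside the threshold stood Snord82 at 1.08 TPM, Snord15a at 1.12 TPM and Snord50a at 1.20 TPM, and just outside it Snora19 at 0.90 TPM, Snord11 at 0.73 TPM and Snord67 at 0.71 TPM. For 4 snoRNAs the mean was under 1 TPM in blebbistatin libraries alone and for 0 in vehicle libraries alone, so these 4 passed the filter through the vehicle group.

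The highest snoRNA was Snord16a, a guide for 18S ribosomal RNA in human cells that lies in an exon of an Rpl4 transcript. It had 73.0, 72.1 and 74.98 TPM in blebbistatin libraries, against 87.9, 67.3 and 71.2 TPM in vehicle libraries. The groups overlapped, with a log2 fold change of -0.03 (SE 0.10, limma with Benjamini-Hochberg adjusted p = 0.877). Snord12, inside the noncoding host Zfas1, had 57.3, 40.3 and 46.0 TPM in blebbistatin libraries and 57.4, 49.9 and 44.7 TPM in vehicle libraries. Snord100, inside Rps12, had 37.6, 44.8 and 42.9 TPM in blebbistatin libraries and 43.8, 47.2 and 43.9 TPM in vehicle libraries. Snord69, inside the nucleolar GTPase gene Gnl3, had 43.0, 24.6 and 30.2 TPM in blebbistatin libraries and 45.6, 30.4 and 36.6 TPM in vehicle libraries. The groups of Snord12, Snord100 and Snord69 overlapped.

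The question put to the whole class was whether snoRNA rows differed between blebbistatin and vehicle cells, and whether the RNAs of their hosts did. With limma and Benjamini-Hochberg adjustment over all 13372 tested genes, 2 of 75 snoRNAs were lower with blebbistatin and 0 were higher, where 0.426% of all tested genes were lower, 1.4% were higher and 1.82% were either. The log2 fold change was below 0 for 54 of 75 snoRNAs (72.0%), against 44.9% of all tested genes. Its median was -0.22 over the snoRNAs and 0.03 over all tested genes. The 4 snoRNAs that passed the level filter only through the vehicle group are counted here and are all below 0. Among the 47 snoRNAs with a mean of at least 5 TPM, 34 (72.3%) were below 0, with a median of -0.19. Over all tested genes at that level 46.7% were below 0, with a median of 0.02. The Snord median was -0.30, with 35 of 48 below 0, and the Snora median was -0.14, with 19 of 27 below 0. Groups did not overlap in 13 snoRNAs that were lower with blebbistatin and in 1 that was higher, where 13% of all tested genes were lower and 18% were higher without overlap. The lower share, 17.3%, was near that background. An unadjusted limma p under 0.05 was reached by 15 snoRNAs that were lower and 2 that were higher, against 9.99% and 12.9% of all tested genes. The 13 include Snord15a, and the 15 include Snord15a and Snora78, which both passed the level filter only through the vehicle group. The median of the snoRNAs was -0.12 with a pseudocount of 5 in place of 1, and it was -0.13 without blebbistatin replicate 3 or without vehicle replicate 2.

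**Figure D1:**
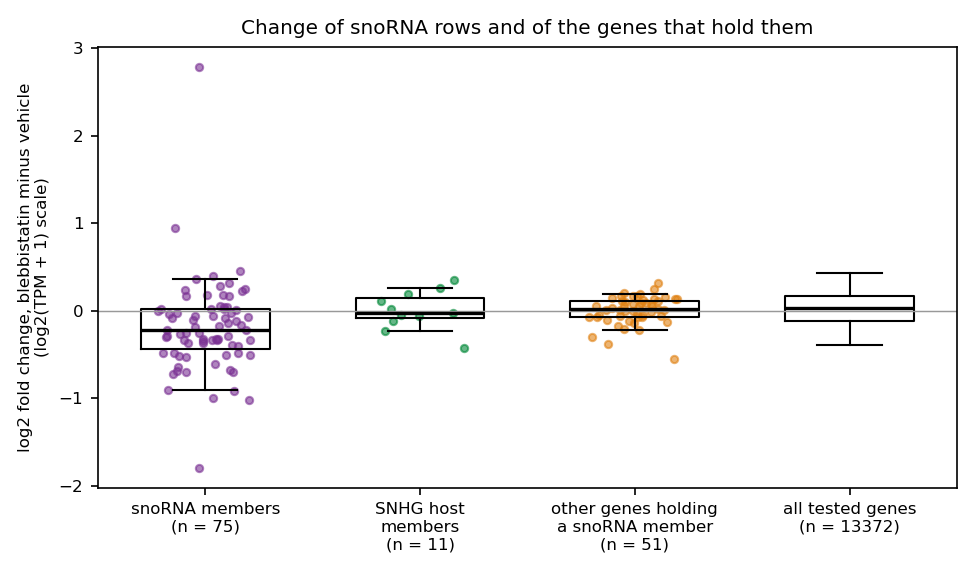
Log2 fold change (blebbistatin minus vehicle, on log2(TPM + 1)) of 75 snoRNAs, 11 SNHG hosts, 51 other genes that hold a snoRNA member and all 13372 tested genes. Points are genes, boxes span the quartiles with the median as a line, and whiskers run from the 5th to the 95th percentile. The snoRNA median lies at -0.22 and the other medians lie at -0.03, 0.01 and 0.03.

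Summed over the 75 snoRNAs, blebbistatin libraries held 973, 888 and 905 TPM, against 1110, 1036 and 1021 TPM in vehicle libraries. The sums did not overlap. The median snoRNA stood at -0.06, -0.20 and -0.23 (log2, from the vehicle mean) in blebbistatin replicates 1, 2 and 3, and at 0.01, 0.04 and -0.07 in the vehicle replicates. Blebbistatin replicate 1 was thus within the range of the vehicle libraries by this measure. Among the 33 snoRNAs with a mean of at least 10 TPM, a cutoff chosen after the values were seen, 26 were below 0, with a median of -0.22. Over all genes at that level 48.3% were below 0, with a median of 0.01.

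Snora41, an H/ACA snoRNA in an intron of Eef1b2, fell to 12.7, 12.7 and 11.1 TPM in blebbistatin libraries, against 20.3, 23.3 and 18.8 TPM in vehicle libraries. The groups did not overlap, with the highest blebbistatin value well under the lowest vehicle value. The means were 12.2 ± 0.956 TPM with blebbistatin and 20.8 ± 2.29 TPM with vehicle (SD, n = 3 each). The log2 fold change was -0.73 (95% interval -0.97 to -0.48, limma with Benjamini-Hochberg adjusted p = 0.0278). Eef1b2, a subunit of the exchange factor of translation elongation, had 634 ± 12.1 TPM with blebbistatin and 555 ± 17.3 TPM with vehicle (SD, n = 3 each). Its log2 fold change was 0.19 and did not pass (limma with Benjamini-Hochberg adjusted p = 0.0865), although its groups did not overlap. Snora41 shares no base with an annotated exon. With no filter on level Snora41 did not pass (limma with Benjamini-Hochberg adjusted p = 0.0682). The limma adjusted p of Snora41 was 0.0513 without blebbistatin replicate 1 and 0.118 without blebbistatin replicate 3, and 0.12, 0.102 and 0.0834 without vehicle replicate 1, 2 or 3.

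Snord33, a box C/D guide for 18S ribosomal RNA in human cells, fell to 16.6, 17.7 and 20.4 TPM in blebbistatin libraries, against 26.6, 31.5 and 28.8 TPM in vehicle libraries. The groups did not overlap. The means were 18.2 ± 1.96 TPM with blebbistatin and 29.0 ± 2.49 TPM with vehicle (SD, n = 3 each), a log2 fold change of -0.64 (95% interval -0.88 to -0.41, limma with Benjamini-Hochberg adjusted p = 0.0352). Snord33 lies wholly in an exon of an annotated Rpl13a transcript and overlaps the microRNA gene Mir5121, so reads of these rows are shared and the value of Snord33 is uncertain. The limma adjusted p of Snord33 was 0.0634 without blebbistatin replicate 1 and 0.089 without blebbistatin replicate 3, and 0.104, 0.13 and 0.136 without vehicle replicate 1, 2 or 3. It was also 0.0521 without the mean-variance trend and 0.0759 with no filter on level.

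The other Rpl13a snoRNAs did not pass. In mouse cells the Rpl13a snoRNAs are known for a role in the response to lipotoxic stress. Snord34, a guide for 28S ribosomal RNA in human cells, had 14.9, 20.8 and 20.9 TPM in blebbistatin libraries, against 26.3, 29.9 and 26.3 TPM in vehicle libraries. Snord35a, also a guide for 28S ribosomal RNA in human cells, had 11.5, 9.36 and 7.56 TPM in blebbistatin libraries, against 13.3, 12.3 and 14.9 TPM in vehicle libraries. Neither row overlapped between groups, at log2 fold changes of -0.53 for Snord34 (SE 0.14, adjusted p = 0.10) and -0.48 for Snord35a (SE 0.15, adjusted p = 0.132, both limma with Benjamini-Hochberg). Snord32a had 26.2, 20.3 and 15.5 TPM in blebbistatin libraries and 23.9, 25.6 and 25.3 TPM in vehicle libraries. Its groups overlapped, since blebbistatin replicate 1 was the highest of the 6 libraries, and its log2 fold change was -0.29 (limma with Benjamini-Hochberg adjusted p = 0.336). Rpl13a itself, a protein of the large ribosomal subunit, had 3276 ± 298 TPM with blebbistatin and 3279 ± 71.4 TPM with vehicle (SD, n = 3 each). Its log2 fold change was -0.01 (95% interval -0.17 to 0.16).

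**Figure D2:**
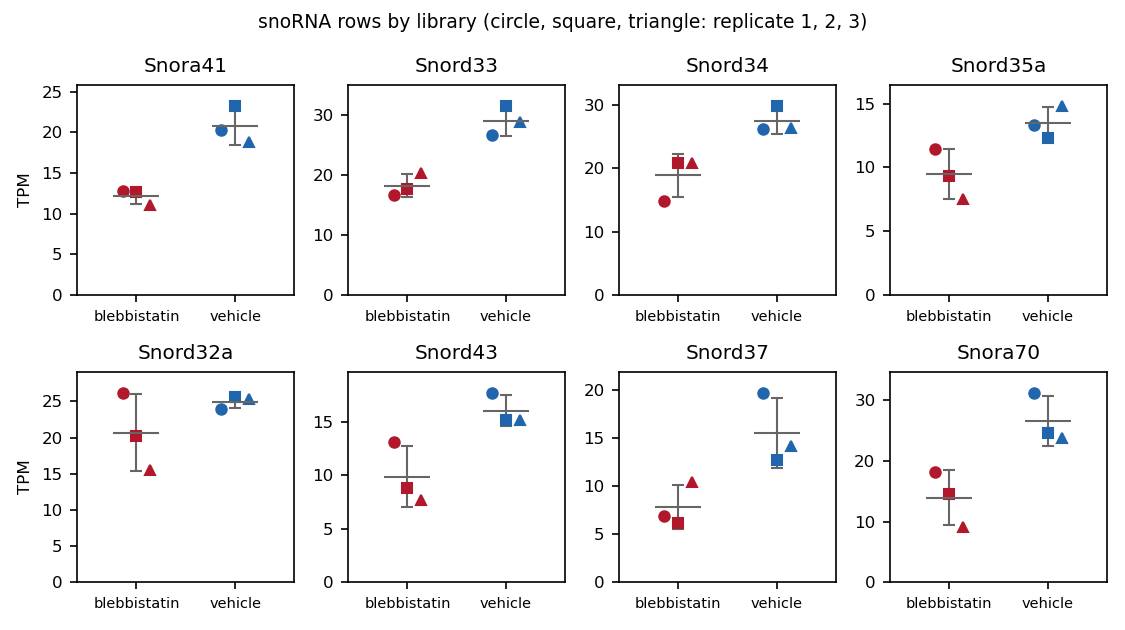
TPM of Snora41, Snord33, Snord34, Snord35a, Snord32a, Snord43, Snord37 and Snora70 in each library, with a panel for each snoRNA and each vertical axis starting at 0. Blebbistatin is at the left and vehicle at the right of each panel, symbols are replicates, and bars show the mean ± SD of 3. Snora41 lies between 11.1 and 12.7 TPM with blebbistatin and between 18.8 and 23.3 TPM with vehicle, and of these 8 snoRNAs only Snord32a overlaps between groups.

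Snord37, in an intron of the elongation factor gene Eef2 and a guide for 28S ribosomal RNA in human cells, had 6.88, 6.21 and 10.4 TPM in blebbistatin libraries, against 19.7, 12.7 and 14.2 TPM in vehicle libraries. The groups did not overlap, at a log2 fold change of -0.91 (SE 0.21, limma with Benjamini-Hochberg adjusted p = 0.0862). Eef2 had 2869 ± 351 TPM with blebbistatin and 2847 ± 54.1 TPM with vehicle (SD, n = 3 each). Snora70, in an exon of a transcript of the X-linked ribosomal protein gene Rpl10, had 18.2, 14.6 and 9.10 TPM in blebbistatin libraries, against 31.2, 24.6 and 23.7 TPM in vehicle libraries. These groups did not overlap either, at a log2 fold change of -0.92 (SE 0.23, limma with Benjamini-Hochberg adjusted p = 0.0959). Rpl10 had 1310 ± 33.1 TPM with blebbistatin and 1263 ± 14.8 TPM with vehicle (SD, n = 3 each).

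Both snoRNA members of Rpl3, a protein of the large subunit, were lower without overlap and did not pass. Snord43 had 13.1, 8.80 and 7.71 TPM in blebbistatin libraries, against 17.7, 15.2 and 15.2 TPM in vehicle libraries. Its log2 fold change was -0.68 (SE 0.18, limma with Benjamini-Hochberg adjusted p = 0.105), and without blebbistatin replicate 1 it was -0.88 and passed (limma with Benjamini-Hochberg adjusted p = 0.0362). Snord83b had 14.5, 16.2 and 18.7 TPM in blebbistatin libraries, against 30.6, 21.1 and 20.9 TPM in vehicle libraries, at a log2 fold change of -0.51 (SE 0.16). Rpl3 had 2912 ± 96.5 TPM with blebbistatin and 2796 ± 75.3 TPM with vehicle (SD, n = 3 each). Other snoRNAs whose blebbistatin values all lay below the vehicle values included Snord68 inside Rpl13 at a log2 fold change of -0.69, Snord15a inside Rps3 at -0.70 and Snora43, which lies inside no tested gene, at -0.25. Another annotated entry named Snora43 overlaps this row on the same strand, and its part in the value was not tested. Snord15a had a mean under 1 TPM with blebbistatin and passed the level filter only through the vehicle group. Snord43, Snord83b, Snord68, Snord15a and Snora43 were chosen for description after their values were seen.

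Snord70, inside the gene of the snoRNP protein Nop58, was the 1 snoRNA that was higher without overlap. It had 5.31, 5.34 and 5.82 TPM in blebbistatin libraries, against 4.68, 2.07 and 1.18 TPM in vehicle libraries, and was chosen after its values were seen. Its log2 fold change was 0.95 (SE 0.32, limma with Benjamini-Hochberg adjusted p = 0.154). Snora7a, inside an exon of an Rpl32 transcript, had the highest fold change of all tested genes and was chosen for that reason. It had 31.8, 21.9 and 28.9 TPM in blebbistatin libraries, against 0.531, 0.389 and 31.3 TPM in vehicle libraries. Vehicle replicate 3 was in the range of the blebbistatin libraries, so the groups overlapped. The log2 fold change was 2.78 (95% interval 0.15 to 5.42, limma with Benjamini-Hochberg adjusted p = 0.200). Without vehicle replicate 3 it was 4.27 and passed (limma with Benjamini-Hochberg adjusted p = 0.00226). Rpl32 had 3219 ± 78.4 TPM with blebbistatin and 2939 ± 33.3 TPM with vehicle (SD, n = 3 each), so the missing signal of Snora7a in 2 vehicle libraries stood beside a host present in all of them.

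In 8 of 75 snoRNAs, Snora7a among them, the highest library was more than 10-fold above the lowest. In 50 of 75 the lowest library had a mean read depth under 30, which includes steady rows. Snora43, with 6.55 to 9.02 TPM over the 6 libraries, had a lowest depth of 18.1. The shares of all tested genes at these 2 cutoffs were not determined. Snord50a, inside Snhg5, had 0.144, 0.108 and 1.66 TPM in blebbistatin libraries and 0.127, 0.106 and 5.04 TPM in vehicle libraries, with replicate 3 high in both groups. The median SE of the log2 fold change was 0.21 over snoRNAs, 0.10 over SNHG hosts and 0.11 over all tested genes.

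**Figure D3:**
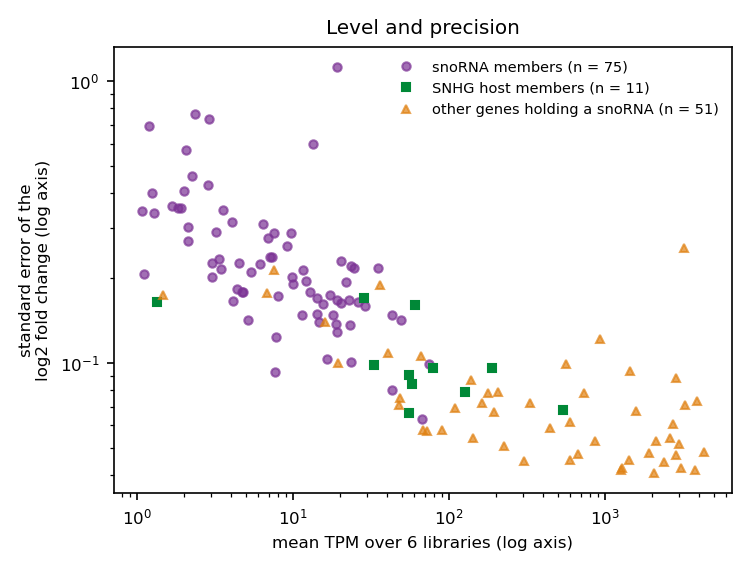
Standard error of the log2 fold change against the mean TPM over 6 libraries, both on log axes, for 75 snoRNAs, 11 SNHG hosts and 51 other genes that hold a snoRNA member. Points are genes. The snoRNAs lie at lower levels and higher errors, with a median SE of 0.21 against 0.10 for the SNHG hosts.

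Of the 11 SNHG hosts none passed with limma in either direction. At an unadjusted limma p under 0.05, 1 was higher and 2 were lower with blebbistatin, against 12.9% and 9.99% of all tested genes. The log2 fold change was below 0 for 6 hosts and above 0 for 5, with a median of -0.03. Summed over the 11 hosts, blebbistatin libraries held 1334, 1214 and 1255 TPM, against 1222, 1225 and 1131 TPM in vehicle libraries. The sums overlapped, unlike those of the snoRNAs.

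Gas5, named for its accumulation in growth-arrested cells and a known target of nonsense-mediated decay, was the highest host. It had 623, 529 and 583 TPM in blebbistatin libraries, against 514, 518 and 484 TPM in vehicle libraries. The groups did not overlap. Over all tested genes 18% were higher and 13% lower without overlap, and among the 11 hosts Gas5 was the only 1 (9.09%). The log2 fold change was 0.19 (SE 0.07, 95% interval 0.03 to 0.35, limma with Benjamini-Hochberg adjusted p = 0.169). Without blebbistatin replicate 2 it was 0.25 and passed (limma with Benjamini-Hochberg adjusted p = 0.0435). After correction for length and GC content it was 0.0755 and did not pass (limma with Benjamini-Hochberg adjusted p = 0.339), and over all alternatives the adjusted p lay between 0.0435 and 0.371. Snord80, a guide for 28S ribosomal RNA in human cells and the only 1 of the 4 snoRNA rows inside Gas5 to reach 1 TPM, had 65.7, 65.9 and 71.4 TPM in blebbistatin libraries and 67.5, 69.6 and 63.5 TPM in vehicle libraries. Its log2 fold change was 0.02 with an interval of -0.13 to 0.16, and it was -0.09 after correction for length and GC content. Its level was 12.4% of that of Gas5, and Snord80 lies wholly in an annotated exon of Gas5. Another of the 4 rows is a second entry of Snord80 that covers the same bases, at a mean of 0.00065 TPM. How reads were divided between the entries was not tested.

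Snhg20 and Snhg4 were the hosts with the largest falls in value, and neither passed. Snhg20 had 19.1, 31.0 and 23.3 TPM in blebbistatin libraries and 36.9, 31.8 and 29.5 TPM in vehicle libraries. The groups overlapped through blebbistatin replicate 2, at a log2 fold change of -0.43 (SE 0.17, limma with Benjamini-Hochberg adjusted p = 0.198). Without that library it was -0.60 and passed (limma with Benjamini-Hochberg adjusted p = 0.0417). Snhg4 had 57.4, 51.9 and 49.9 TPM in blebbistatin libraries and 67.5, 62.8 and 56.9 TPM in vehicle libraries, at a log2 fold change of -0.23 (SE 0.08). Its groups overlapped only in that blebbistatin replicate 1 exceeded vehicle replicate 3. Inside Snhg4 lay 1 snoRNA row, Snora74a, at a mean of 0.0481 TPM and so no member, and inside Snhg20 lay 0.

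Snhg3, host of the U17 snoRNAs Snora73a and Snora73b that act in cleavage of the ribosomal RNA precursor, had 58.4, 74.4 and 70.3 TPM in blebbistatin libraries and 46.1, 67.4 and 46.6 TPM in vehicle libraries. Its groups overlapped, with vehicle replicate 2 apart from the other vehicle libraries, at a log2 fold change of 0.35 (SE 0.16, limma with Benjamini-Hochberg adjusted p = 0.242). Snora73a had 2.69, 0.559 and 1.74 TPM in blebbistatin libraries and 2.37, 2.31 and 3.07 TPM in vehicle libraries. Snora73b had 3.21, 1.19 and 0.592 TPM in blebbistatin libraries and 1.48, 2.60 and 2.51 TPM in vehicle libraries. These sequences are 96.6% identical, so reads can be assigned to either and both values are uncertain.

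Snhg12 holds Snora16a and Snora61 among 5 snoRNA rows. Another of these rows is a second entry of Snora16a that covers the same bases, at a mean of 0.18 TPM. Snhg12 had 55.2, 54.2 and 53.0 TPM in blebbistatin libraries and 60.8, 55.8 and 53.1 TPM in vehicle libraries. Snora61 had 20.7, 19.2 and 16.4 TPM in blebbistatin libraries and 23.2, 17.5 and 18.6 TPM in vehicle libraries, and Snora16a averaged 9.97 ± 2.92 TPM with blebbistatin and 10.2 ± 1.27 TPM with vehicle (SD, n = 3 each). Host and snoRNAs overlapped between groups alike, at log2 fold changes of -0.06 for Snhg12, -0.07 for Snora61 and -0.06 for Snora16a. Snhg8 averaged 54.7 ± 5.07 TPM with blebbistatin and 56.6 ± 4.66 TPM with vehicle, and its snoRNA Snora24 averaged 14.9 ± 1.10 TPM with blebbistatin and 14.6 ± 2.86 TPM with vehicle (SD, n = 3 each). Snhg6 averaged 127 ± 8.42 TPM with blebbistatin and 126 ± 10.2 TPM with vehicle, and its snoRNA Snord87 averaged 19.0 ± 1.79 TPM with blebbistatin and 19.0 ± 3.37 TPM with vehicle (SD, n = 3 each). Snhg8, Snora24, Snhg6 and Snord87 also overlapped between groups.

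The remaining hosts overlapped between groups as well. Snhg1 had 227, 172 and 196 TPM in blebbistatin libraries and 182, 185 and 182 TPM in vehicle libraries, so that it varied more with blebbistatin than with vehicle. Snhg5 had 85.4, 74.1 and 67.8 TPM in blebbistatin libraries and 88.8, 78.7 and 78.6 TPM in vehicle libraries. Snhg17 averaged 32.9 ± 2.56 TPM with blebbistatin and 33.7 ± 3.74 TPM with vehicle (SD, n = 3 each). Snhg14, the imprinted transcript of the region that is deleted in Prader-Willi syndrome in human, was near the threshold at 1.76, 1.43 and 1.45 TPM in blebbistatin libraries and 0.866, 1.05 and 1.51 TPM in vehicle libraries. Their log2 fold changes were 0.11 for Snhg1, -0.12 for Snhg5, -0.03 for Snhg17 and 0.26 for Snhg14, each with a 95% interval that included 0.

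**Figure D4:**
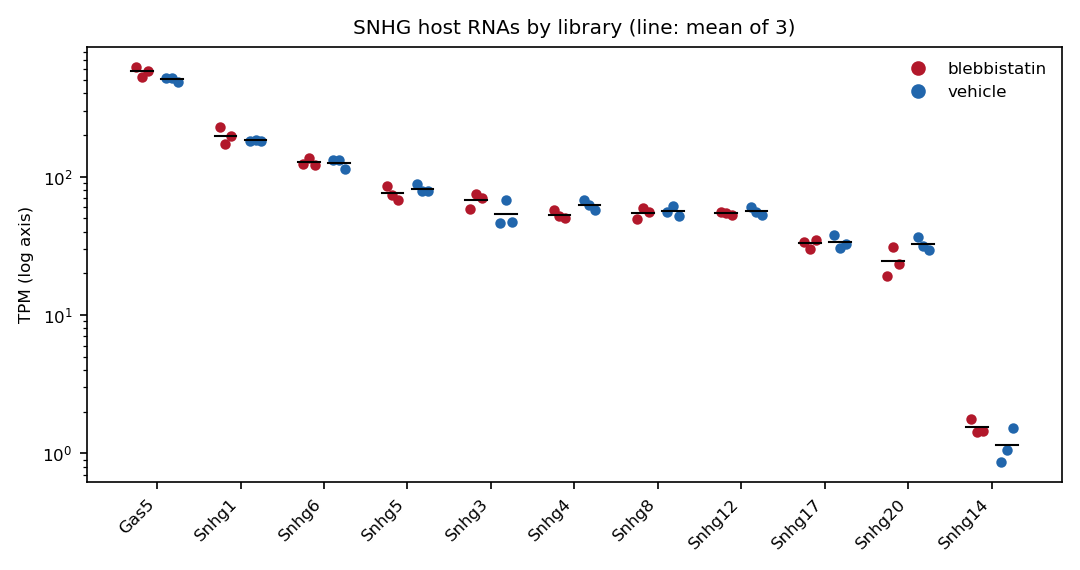
TPM (log axis) of the 11 SNHG hosts in each library, ordered by mean level, with blebbistatin at the left and vehicle at the right of each pair. Points are libraries and lines are means of 3. Gas5 lies between 529 and 623 TPM with blebbistatin and between 484 and 518 TPM with vehicle, and the points of the other 10 hosts overlap.

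Each snoRNA was then set beside the gene on the same strand that holds it. A tested gene was found for 70 of 75 snoRNAs, with 8 of them inside 6 SNHG hosts and 62 inside 51 other genes. In 51 pairs the snoRNA had the lower log2 fold change and in 19 the higher, with a median difference of -0.21. The difference had a median of -0.09 over the 8 pairs in SNHG hosts, with 6 below 0, and of -0.22 over the 62 other pairs, with 45 below 0. Snord50a in Snhg5, Snord15a in Rps3 and Snord82 in Ncl passed the level filter only through the vehicle group. All are counted here and lie below their hosts. The snoRNA row stood at a median of 2.32% of the level of its host. Pairs are not independent, since 8 genes hold more than 1 member.

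The 51 other host genes gave no call with limma in either direction. At an unadjusted limma p under 0.05, 10 were higher and 3 lower, against 12.9% and 9.99% of all tested genes. The log2 fold change of the 51 host genes was below 0 in 22, with a median of 0.01. The 62 snoRNAs inside them had a median of -0.26. Snord15a and Snord82, which passed the level filter only through the vehicle group, are among the 62. With the length and GC correction the direction of these hosts turned, with 30 of 51 below 0, a median of -0.04 and 2 called lower, while the median of all 75 snoRNAs was -0.18. Among these hosts 17 are ribosomal protein genes named Rpl or Rps followed by a number, and 23 snoRNAs lie inside them. Rplp2 and Rpsa also encode ribosomal proteins but are outside this count, at log2 fold changes of -0.13 and 0.01. Their snoRNAs Snora52 (-0.33) and Snora62 (0.04) are outside it too. Of these 23 snoRNAs 17 were below 0, with a median of -0.29, and 10 were lower without overlap, against 13% of all tested genes. Snord15a, which passed the level filter only through the vehicle group, is counted in each of these numbers. Of the 17 host genes 4 were below 0, with a median of 0.09, and 7 (41.2%) were higher without overlap, against 18% of all tested genes. The 77 tested ribosomal protein genes named in that way had a median of 0.05, with 27 below 0, 0 called and 28 (36.4%) higher without overlap.

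**Figure D5:**
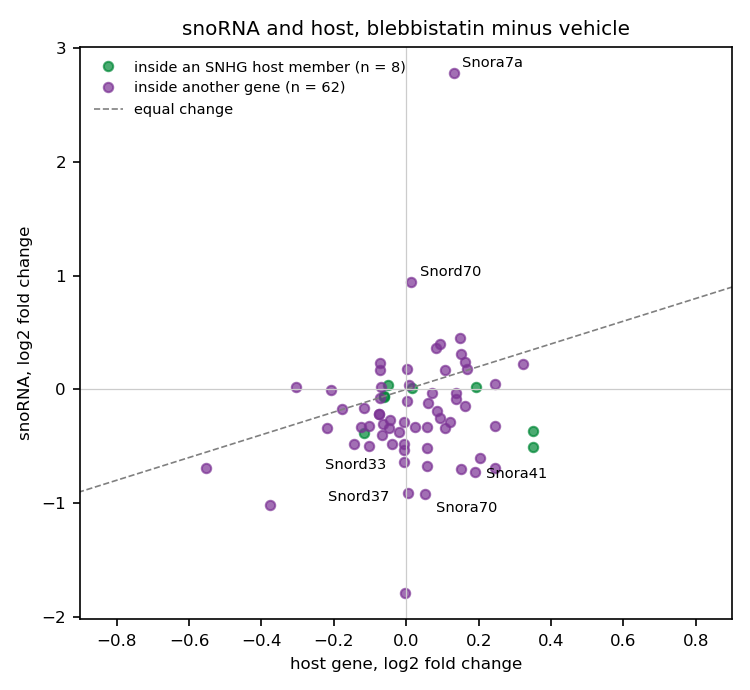
Log2 fold change (blebbistatin minus vehicle) of each snoRNA on the vertical axis against that of the gene that holds it on the horizontal axis, for 70 pairs. Points are pairs, green inside SNHG hosts and purple inside other genes, and the dashed line marks equal change. In 51 of 70 pairs the point lies under the line, and Snord37 lies at -0.91 for a host near 0. The 51 include Snord50a, Snord15a and Snord82, which passed the level filter only through the vehicle group.

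Reads of a host exon can be counted in a snoRNA row, and their part in the results was not tested. The split by exons was chosen after the values were seen. Of the snoRNAs with a host, 24 lay wholly and 6 partly in an annotated exon of it, and 40 shared no base with one. Over the 42 snoRNAs that overlapped no annotated exon of any gene, 28 were below 0, with a median of -0.17, and 8 (19.0%) were lower without overlap, against 13% of all tested genes. Over the 32 that overlapped an exon on their own strand, 25 were below 0, with a median of -0.26. Snord15a, Snord82 and Snora78 are among the 28, Snord15a is among the 8 and Snord50a is among the 25. These snoRNAs passed the level filter only through the vehicle group.

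Other short rows were set beside the snoRNAs. The 514 other rows of at most 300 bases had a median log2 fold change of 0.00, with 49.2% below 0. Of these short rows 4 were called lower and 0 higher. The 124 rows of microRNA genes are part of these 514 and include all 4 calls. They had a median of -0.17, with 63.7% below 0. Without overlap 23 (18.5%) of them were lower and 5 (4.03%) higher, against 13% and 18% of all tested genes. The 2 small Cajal body RNA rows tested had log2 fold changes of 0.56 and 0.57, and neither passed. At an unadjusted limma p under 0.05 these 2 were higher, against 12.9% of all tested genes. Without overlap 1 was higher, against 18%.

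The genes of snoRNP proteins and snoRNA processing gave 0 calls among 30 with limma, with 1 higher and 9 lower at an unadjusted p under 0.05. Of these 20 were below 0, with a median of -0.06, while 11 were lower and 3 higher without overlap. All tested genes gave 9.99% lower and 12.9% higher at that unadjusted p, and 13% lower and 18% higher without overlap. Nolc1, a chaperone of snoRNPs in the nucleolus, averaged 175 ± 6.997 TPM with blebbistatin and 205 ± 2.31 TPM with vehicle (SD, n = 3 each). Its log2 fold change was -0.23 (SE 0.05, limma with Benjamini-Hochberg adjusted p = 0.0688), and it passed without blebbistatin replicate 2 (limma with Benjamini-Hochberg adjusted p = 0.0299). Gar1, a core protein of H/ACA snoRNPs, had a log2 fold change of -0.34, at 76.6 ± 2.07 TPM with blebbistatin and 97.6 ± 13.2 TPM with vehicle (SD, n = 3 each). The box C/D methyltransferase Fbl averaged 348 ± 16.3 TPM with blebbistatin and 385 ± 5.55 TPM with vehicle (SD, n = 3 each), a log2 fold change of -0.15. Nop56, another box C/D core protein and the highest of the list, averaged 546 ± 12.2 TPM with blebbistatin and 590 ± 82.2 TPM with vehicle (SD, n = 3 each). Nolc1, Gar1 and Fbl were chosen after their values were seen.

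Factors of nonsense-mediated decay, the pathway that degrades several SNHG RNAs, gave 0 calls among 20 with limma. At an unadjusted limma p under 0.05, 1 was higher and 5 were lower, against 12.9% and 9.99% of all tested genes. Of the 20 factors 9 were below 0. The highest of them, Eif4a3 of the exon junction complex, averaged 242 ± 23.1 TPM with blebbistatin and 286 ± 13.5 TPM with vehicle (SD, n = 3 each), a log2 fold change of -0.24 (limma with Benjamini-Hochberg adjusted p = 0.147). Among 12 other nuclear long noncoding RNAs limma called 0. At an unadjusted limma p under 0.05, 1 was higher and 2 were lower, against the same 12.9% and 9.99% of all tested genes. Of the 12 RNAs 9 were below 0, with a median of -0.07. Xist, the highest of these, averaged 387 ± 41.8 TPM with blebbistatin and 350 ± 6.53 TPM with vehicle, a log2 fold change of 0.14. Malat1 averaged 198 ± 31.7 TPM with blebbistatin and 177 ± 12.9 TPM with vehicle (SD, n = 3 each), and was named after its value was seen.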

How the data were processed

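RNA of activated mouse CD8+ T cells was extracted with TRIzol and chloroform and sequenced on a NovaSeq instrument, per the labels' protocols. The submitters' processing notes list build mm10 with HISAT2 2.1.0, DESeq2 1.22.2 and StringTie 1.3.4 but assign them no step. The authors' deposited TPM values have the same sum in every library, and their deposited FPKM values are proportional to TPM within a library. Coverage, as deposited, is the unscaled mean read depth of a gene. Further settings were not given in the sources used here. The kit does not mark strand, so genes on opposite strands share reads.

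The files hold no counts. On log2(TPM + 1), limma 3.58.1 (R 4.3.3, trend on) compared the 13372 genes whose mean reached 1 TPM, at a Benjamini-Hochberg adjusted p of 0.05. Fold changes on this scale understate those of low rows. The script was tested on simulated data. Exact tests of 3 against 3 cannot go below 0.1 and were not used. Hosts, exons and sequences came from GENCODE M21, which held 139 of 140 named rows (not Snhg4). Genes it lacks were placed by the deposited coordinates.

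Members and lists were chosen with earlier results of these data known. Named genes were all hosts, all snoRNAs that passed, the 6 highest snoRNAs, the 4 largest falls and rises among snoRNAs of at least 5 TPM without overlap, snoRNAs of named hosts, and the highest of each list. No rise met that rule, and some genes that it names are not reported here. Splits by exon overlap and at 10 TPM were added after seeing the data. Alternatives were pseudocounts of 0.1 and 5, other level filters, FPKM, median-ratio and quantile scaling, limma without trend or robust, a length and GC correction, a replicate block and leaving out each library. Figures were drawn with matplotlib 3.10.9.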

Additional observations from a re-analysis of the deposited data

How the results depend on the processing

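Over all tested genes 244 were called, against 49 with no filter on level, 160 without the mean-variance trend, 446 with the length and GC correction, and 3 to 1090 when 1 library was left out (1090 without blebbistatin replicate 2, 3 without blebbistatin replicate 3). Of snoRNAs 2 were called, against 0 with no filter, 1 without the trend, and 0 to 3 when 1 library was left out. The 3, without blebbistatin replicate 2, were Snora41, Snord33 and, higher, Snord73a. Without blebbistatin replicate 1 the calls were 2 lower, neither of them Snora41 or Snord33. Without vehicle replicate 3 the call was 1 higher. SNHG hosts gave 0, and 0 to 2 on leaving out a library. Other genes that hold a snoRNA gave 0, against 2 with the length and GC correction and 0 to 5 on leaving out a library. The snoRNA median was -0.12 with a pseudocount of 5 and -0.23 to -0.13 on leaving out a library, and the host median was -0.0523 to 0.0509. That host median was -0.0788 with the length and GC correction (8 of 10 below 0) and -0.0587 with median-ratio scaling, against -0.0288. Below 0 were 53 to 58 of 75 snoRNAs with the other settings that kept all 75 rows, and 52 to 57 on leaving out a library.

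The deviations of equally numbered libraries correlated at 0.0107, -0.0373 and -0.034, so they showed no pairing by replicate number. Such values cannot show whether the libraries were prepared in pairs. With a replicate block 0 of all genes and 0 snoRNAs were called.

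The sign turned in results near 0. With the length and GC correction, which could not include Snhg4, the log2 fold change was 0.0365 for Rpl13a, -0.0234 for Rpl10, -0.0329 for Snhg1, -0.0137 for Snhg14, -0.114 for Snhg6 and -0.0867 for Snord80. With median-ratio scaling it was -0.0138 for Snhg6, -0.0139 for Snord80 and -0.0269 for Eef2. Quantile scaling gave -0.0207 for Eef2 and 0.00064 for Snord16a, and FPKM gave -0.0030 for Eef2. On leaving out a library the range was -0.0702 to 0.105 for Eef2, -0.0584 to 0.0702 for Rpl13a, -0.0907 to 0.0564 for Snhg17, -0.0519 to 0.0537 for Snhg6, -0.109 to 0.0220 for Snhg8, -0.222 to 0.0269 for Snord12, -0.107 to 0.0833 for Snord16a and -0.0218 to 0.0455 for Snord80. The causes were not tested. Depth limits rows near 1 TPM most.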
